A study of Mus musculus with 2 samples.

Results

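The Gimap genes (GTPases of the immunity-associated protein family) were followed in sorted mature thymocytes of transgenic mice. The members were the 8 genes whose symbols begin with Gimap followed by a number alone in the deposited gene counts, namely Gimap1, Gimap3, Gimap4, Gimap5, Gimap6, Gimap7, Gimap8 and Gimap9, of 48321 genes listed. They were chosen by name, and all 8 had more than the 10 counts needed for a test. All 8 lie next to each other on chromosome 6 of the mouse.

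Gimap proteins are small GTPases anchored on or recruited to inner membranes of lymphocytes, where they are known mainly for keeping naive T cells alive. Each carries a GTP-binding domain that begins with a phosphate-binding loop, and different members are found on different membranes, among them lysosomes, the endoplasmic reticulum and the Golgi apparatus. Loss of Gimap5 or of Gimap1 is known to deplete T cells, and Gimap6 is known as a partner of autophagy proteins. Immature thymocytes are known to express less of several members than mature ones, so a mature thymic population is a natural place to read the whole family.

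The cells were CD4- mature thymocytes, defined as CD24 low and TCRβ high, of MHC-II0:CD8ab-Tg mice on a background labelled C57Bl/6. These mice lack the I-Ab chain of MHC class II, carry CD8α and CD8β cDNAs in the Rosa26 locus, and have both endogenous Cd8 genes disrupted. Cre driven by Cd4 removes the stop cassette before those cDNAs, so CD8 is made only in cells that have switched on Cd4-Cre and in their progeny. The labels name the cells both as CD4-CD8- and as CD8+, and neither labels nor methods give age, sex or how many mice were pooled. Wild-type libraries were not analysed here, and the Gimap cluster shares chromosome 6 with both Rosa26 and Cd8, so no Gimap level can be attributed to the transgene or to the absence of MHC class II.

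RNA was measured by poly(A) RNA-seq in 2 libraries of this single group, replicates 1 and 2, with 16732644 and 16245849 counts on genes. Levels are given as counts-per-million values of that total (CPM) or, to compare genes with each other, as CPM per kb of annotated exon. The 7 T cell markers were all above 1 CPM, and their summed level was 3352 and 3356 CPM, while Cd4 stood at 0.717 and 1.66 CPM. Cd8a stood at 158 and 171 CPM and Cd8b1 at 775 and 786 CPM, or 45.3 and 526 CPM per kb on average. How much of either level came from the transgenic cDNAs was not tested. Counts per gene do not show whether transcripts of the disrupted Cd8 genes add to these values. H2-Ab1, the gene of the missing class II chain, had 395 and 292 counts, and counts per gene do not show whether these reads come from outside the disrupted stretch. The libraries also differed in Xist (34 and 25266 counts) and in the Y-linked Ddx3y (2450 and 0 counts). Of 4 NK cell markers, all 4 passed the test described below as higher in replicate 2 with no minimum fold. Of all genes tested, 16.3% passed in either direction, and under each of the 3 other scalings described below 3 of the 4 markers passed as higher. The summed level of these markers was 225 and 403 CPM. Most of that sum was Eomes, at 196 and 355 CPM, a transcription factor gene that memory-like CD8 T cells express as well as NK cells, while Ncr1 stood at 2.69 and 6.89 CPM and Gzma at 4.36 and 14.6 CPM. Lists of 5 B cell, 5 myeloid and 5 thymic epithelial markers summed to at most 15.9 CPM in either library. Cd79b (196 and 227 counts), Csf1r (163 and 191 counts) and Epcam (50 and 53 counts) carried most of these sums, and Pax5 and Foxn1 had 1 and 0 counts. Of 5 endothelial markers, Kdr and Emcn were at 0 in both libraries, and Pecam1 carried nearly the whole summed level of 77.7 and 68.0 CPM. Of 4 erythroid markers 3 were at 0, and 5 markers of immature CD4+CD8+ thymocytes summed to 17.3 and 16.1 CPM, mostly from Dntt.

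The coding sequence for the phosphate-binding loop is a stretch that all 8 members share as GTPases, though many GTPases outside the family have such a loop as well. The 24 bases below, read 5′ to 3′ on the coding strand from GENCODE M21 transcripts of GRCm38, encode that loop, and the capitals mark the codons of its last glycine, its lysine and its serine or threonine. They are shown for the most alike pair (Gimap3 and Gimap5), for the members with the highest and the lowest level per kb (Gimap4 and Gimap7), and for Gimap8, the long member, whose coding sequence holds 3 copies.
Gimap3: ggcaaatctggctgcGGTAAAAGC
Gimap5: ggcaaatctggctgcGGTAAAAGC
Gimap4: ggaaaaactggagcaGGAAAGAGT
Gimap7: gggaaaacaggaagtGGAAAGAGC
Gimap8 copy 1: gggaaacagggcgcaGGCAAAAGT
Gimap8 copy 2: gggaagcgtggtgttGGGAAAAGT
Gimap8 copy 3: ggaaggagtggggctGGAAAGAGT

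Gimap3 (chr6:48765887-48765910, minus strand, exon 5) and Gimap5 (chr6:48752594-48752617, plus strand, exon 3) had the same base at all 24 positions. The loop of Gimap4 lay at chr6:48690421-48690444 in exon 3 and that of Gimap7 at chr6:48723524-48723547 in exon 2, both on the plus strand. The 3 copies in Gimap8 lay in different exons of the plus strand, in exon 2 (chr6:48650256-48650279), exon 4 (chr6:48656119-48656142) and exon 5 (chr6:48658746-48658769). Over whole coding sequences, Gimap3 and Gimap5 were identical at 86.1% of aligned positions and Gimap7 and Gimap9 at 64.5%. The other pairs without Gimap8 were less alike, from 37.4% to 54.7%. Gimap8 has 2064 coding bases, against 873 to 984 in the other members.

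The promoters of the members at both ends of the order of level are shown because both hold the same letters of a Runx motif, the DNA element of transcription factors that act throughout T cell development. Each runs from 250 bases before to 50 bases after a RefSeq start site (GRCm38.p6, plus strand), and the capitals mark the match to TGTGGT, which lies on the opposite strand and so reads ACCACA.
Gimap4, chr6:48684328-48684627: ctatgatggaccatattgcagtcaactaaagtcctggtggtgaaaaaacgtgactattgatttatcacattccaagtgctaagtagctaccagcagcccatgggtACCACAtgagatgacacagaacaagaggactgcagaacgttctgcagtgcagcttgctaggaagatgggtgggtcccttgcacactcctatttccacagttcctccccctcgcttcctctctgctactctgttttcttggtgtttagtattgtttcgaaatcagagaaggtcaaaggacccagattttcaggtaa
Gimap7, chr6:48718371-48718670: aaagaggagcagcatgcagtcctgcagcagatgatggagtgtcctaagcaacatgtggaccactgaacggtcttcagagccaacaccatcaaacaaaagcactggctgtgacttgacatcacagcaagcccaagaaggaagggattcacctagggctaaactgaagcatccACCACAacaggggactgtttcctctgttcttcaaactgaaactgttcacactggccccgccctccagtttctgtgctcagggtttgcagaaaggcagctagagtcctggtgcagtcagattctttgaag

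The match began at position -145 from the start site in Gimap4 and at -79 in Gimap7. RefSeq gave 9 promoters for the 8 members, with 2 start sites for Gimap8. Searched on both strands, TGTGGT was in 3 of the 9 (Gimap1, Gimap4 and Gimap7) and in 16.8% of all 32851 mouse promoters of this length. CCAAT was in 3 of the 9 (Gimap1, Gimap6 and Gimap9) and in 37.4% of all. TATAAA was in 1 of the 9, that of Gimap6, and in 13.6% of all. CCGGAA (1 form of an Ets site) and CACACCC (1 form of a Klf site) were in 0 of the 9 and in 14.9% and 7.95% of all. Other forms of these sites were not searched, so the promoters may still hold Ets or Klf sites. The same Runx letters thus stood in the promoters of both the highest and the lowest member, and these matches are letters in a window, not measured binding sites. GC content ran from 43.3% in the Gimap6 promoter to 57.3% in that of Gimap9, and the median of all promoters was 52.7%.

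The 8 genes together took 31577 counts in replicate 1 and 32372 in replicate 2. That is 1887 and 1993 CPM, or 1940 ± 74.6 CPM (mean ± SD, n = 2), and 0.189% and 0.199% of all counts on genes. All 8 were detected far above the level of 3 counts, equal to 0.179 CPM in the first library and 0.185 in the second. The family total was carried by few members: Gimap4, Gimap3 and Gimap8 held 68.1% of it in replicate 1 and 66.6% in replicate 2. The median CPM of the members was 207 in replicate 1 and 229 in replicate 2.

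Gimap4, known as a regulator of T cell death, had the largest share. Its 8820 and 9272 counts in replicates 1 and 2 gave 527 CPM (Wilson 95% confidence interval 516 to 538) and 571 CPM (559 to 582). Gimap3, the close relative of Gimap5, had 7370 and 7338 counts, or 440 and 452 CPM. Gimap4 gave 27.9% and 28.6% of the family's counts and Gimap3 gave 23.3% and 22.7%, so these genes made up more of the total than the remaining members did. Gimap8, with its 3 GTP-binding domains, had 5312 and 4952 counts, or 317 and 305 CPM. Gimap6, the member tied to autophagy, had 4437 and 4986 counts, or 265 and 307 CPM. Gimap8 was the 1 member with a lower CPM in replicate 2.

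Gimap1, which mature T and B cells are known to need, had 2480 and 2482 counts, or 148 and 153 CPM. Gimap9, a short member with 2 exons, had 1482 and 1473 counts, or 88.6 and 90.7 CPM. Gimap5, the member whose loss is best known for depleting naive T cells, had 1308 and 1451 counts, or 78.2 and 89.3 CPM. Gimap1 and Gimap9 thus differed little between the libraries, and Gimap5 more. Gimap7, known to pair with other Gimap proteins through its GTP-binding domain, had the fewest counts, 368 and 418. Its CPM was 22.0 (95% interval 19.9 to 24.4) in replicate 1 and 25.7 (23.4 to 28.3) in replicate 2, and it gave 1.17% and 1.29% of the family total. The intervals cover counting error only.

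**Figure D1:**
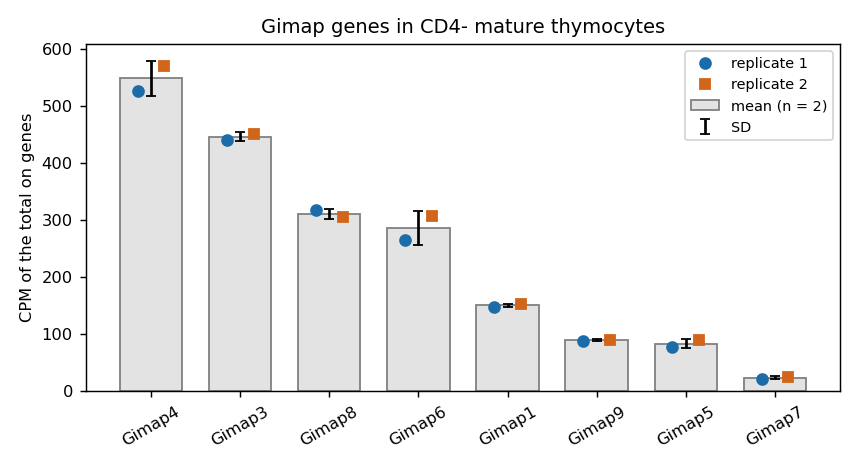
CPM of each Gimap gene (y axis, of the total on genes) in replicate 1 (circles) and replicate 2 (squares), with bars for the mean and error bars for the SD over 2 libraries. Gimap4 runs from 527 to 571 CPM and Gimap7 from 22.0 to 25.7 CPM, and Gimap8 is the one gene whose replicate 2 lies below its replicate 1.

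Per kb of exon the order was Gimap4, Gimap3, Gimap8, Gimap6, Gimap9, Gimap1, Gimap5 and Gimap7. Gimap4 stood at 287 and 311 CPM per kb (299 ± 16.8, mean ± SD, n = 2) and Gimap3 at 171 and 175 (173 ± 3.08). Gimap4 was thus 1.73 times as high as Gimap3, with no overlap between their libraries. Gimap8 stood at 85.8 and 82.4 CPM per kb and Gimap6 at 75.8 and 87.8, so the ranges of these neighbours overlapped and their order is not settled by these libraries. Gimap9 stood at 53.9 and 55.2 CPM per kb, and Gimap1 at 48.2 and 49.7. Gimap5 stood at 18.8 and 21.5 CPM per kb, and Gimap7 at 9.46 and 11.1. Of the 7 pairs of neighbours in this order, only Gimap8 and Gimap6 overlapped between libraries. With 2 libraries the order has no test of its own, and non-overlap is given as a description.

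The 2 genes most alike in sequence were far apart in level. Gimap3 was 9.07 times as high as Gimap5 per kb in replicate 1 and 8.14 times in replicate 2 (8.61 ± 0.657, mean ± SD). Of the windows of 50 bases along their transcripts, 190 occur in both genes. Reads without a unique alignment were kept apart from the gene counts, so reads from these stretches can be missing from both genes. Other genes hold 8.15% of the windows of Gimap3 and 6.84% of those of Gimap5. With the same counts divided by the number of remaining windows in place of exon length, the ratio was 9.48 and 8.51. Per kb of the longest transcript, Gimap3 stood at a mean of 208 CPM and Gimap5 at 36.0. Per kb of the mean coding transcript they stood at 217 and 42.9, so both lengths brought the pair closer. Gimap9 and Gimap7, the next most alike pair, differed 5.70 and 4.99 times per kb of exon. Their means were 64.8 and 18.8 CPM per kb of longest transcript, and 87.6 and 28.2 per kb of mean coding transcript, also closer together. In both pairs, the members most alike in sequence thus stood well apart in level.

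The length chosen for each gene moved the middle of the order but not its ends. The union of all annotated exons was used above, and 3 other lengths were tried: the longest transcript, the mean coding transcript, and the number of windows of 50 bases found in no other gene. Gimap4 was first, Gimap3 second, Gimap5 seventh and Gimap7 last under all 4 lengths. Gimap1 went from 49.0 CPM per kb of exon union to 93.2 per kb of the longest transcript and 126 per kb of the mean coding transcript, and its place moved between 4 and 6. Gimap7 went from 10.3 to 28.2 CPM per kb between the exon union and the mean coding transcript, and stayed last. Its mean coding transcript, 846 bases, is shorter than its 879 coding bases. Transcript models without the full coding sequence thus enter that mean, and it overstates the level of Gimap7. Gimap8 and Gimap6 each took places between 3 and 5, and Gimap9 place 5 or 6. The highest member was 29.1 times the lowest per kb of exon union, 16.2 times per kb of longest transcript, 17.3 times per kb of mean coding transcript and 25.8 times per window found in no other gene. Reads could not be recounted by window, so this last length changes the divisor and not the counts.

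**Figure D2:**
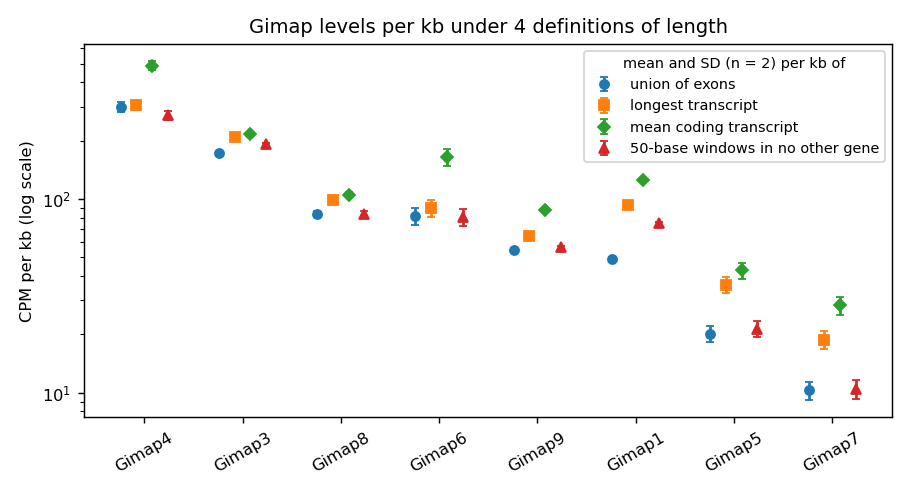
Level of each Gimap gene per kb (y axis, CPM per kb, log scale; mean and SD over 2 libraries) with 4 definitions of length, which the marker shapes tell apart. Gimap4, Gimap3, Gimap5 and Gimap7 keep their places, and Gimap1 runs from 49.0 to 126 CPM per kb.

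Gimap1 is the member whose count is least certain. Of its 3073 exon bases, 1107 (36.0%) also belong to exons of Gimap1os, a transcript without a coding sequence on the opposite strand. The library kit named by the labels does not mark strand, so reads from that stretch cannot be assigned to one of these genes, and the way such reads were counted was not tested. Gimap1os itself had 732 and 779 counts, 0.295 and 0.314 times those of Gimap1. Gimap1, Gimap5 and Gimap7 also share 198, 153 and 81 exon bases with Gm28053, a coding gene model that reads through from Gimap7 to Gimap5 and had 16 and 20 counts. Gimap3, Gimap4, Gimap6, Gimap8 and Gimap9 shared no exon base with any other gene.

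Along chromosome 6 the cluster ran from 48647234 to 48770851 (GRCm38), a length of 123.618 kb, in the order Gimap8, Gimap9, Gimap4, Gimap6, Gimap7, Gimap1, Gimap5 and Gimap3. Gimap8 (chr6:48647234-48660875, 5 exons) opened it, followed by Gimap9 (chr6:48676129-48679114, 2 exons) and Gimap4 (chr6:48684549-48692060, 3 exons), all on the plus strand. Gimap6 (chr6:48701582-48708225, 3 exons) came next on the minus strand. Gimap7 (chr6:48718621-48724636, 2 exons), Gimap1 (chr6:48739054-48743795, 3 exons) and Gimap5 (chr6:48746197-48754210, 3 exons) followed on the plus strand, and Gimap3 (chr6:48764464-48770851, 5 exons) closed the cluster on the minus strand.

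Members that lie side by side often differed severalfold in level. Gimap9 and Gimap4 lie 5.434 kb apart, and Gimap4 was 5.47 times as high per kb. Gimap6 and Gimap7 lie 10.395 kb apart, and Gimap7 stood at 0.125 times the level of Gimap6 per kb. The closest neighbours, Gimap1 and Gimap5, have 2.401 kb between them, and Gimap5 stood at 0.412 times the level of Gimap1 per kb. Gimap5 and Gimap3 lie 10.253 kb apart, and Gimap3 was 8.58 times as high per kb.

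The genes beside the cluster were low. Before it, Zfp775, a zinc finger gene, had 120 and 121 counts (1.72 CPM per kb on average), AI854703 had 31 and 61 counts (0.651 CPM per kb), and Gm44965 had none in either library. After it, Tmem176b and Tmem176a, which encode membrane proteins, had 40 and 42 and 53 and 51 counts (1.05 and 0.828 CPM per kb), and Aoc1, a diamine oxidase gene, had none. The lowest member, Gimap7, was 5.60 times as high per kb as the highest of these flanking genes in replicate 1 and 6.31 times in replicate 2. For the genes without a count, a count of 0 allows a level of up to 0.179 CPM in one library and 0.185 in the other. Within the cluster, Gimap1os stood at 14.8 CPM per kb, a level that may include or miss reads from the exon bases shared with Gimap1. Gm44226 and 4833403J16Rik, 2 long noncoding genes on opposite strands between Gimap5 and Gimap3, stood at 19.0 and 14.1 CPM per kb. The last pair shares 649 exon bases, and the pseudogene Gm44262 had no count in either library.

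**Figure D3:**
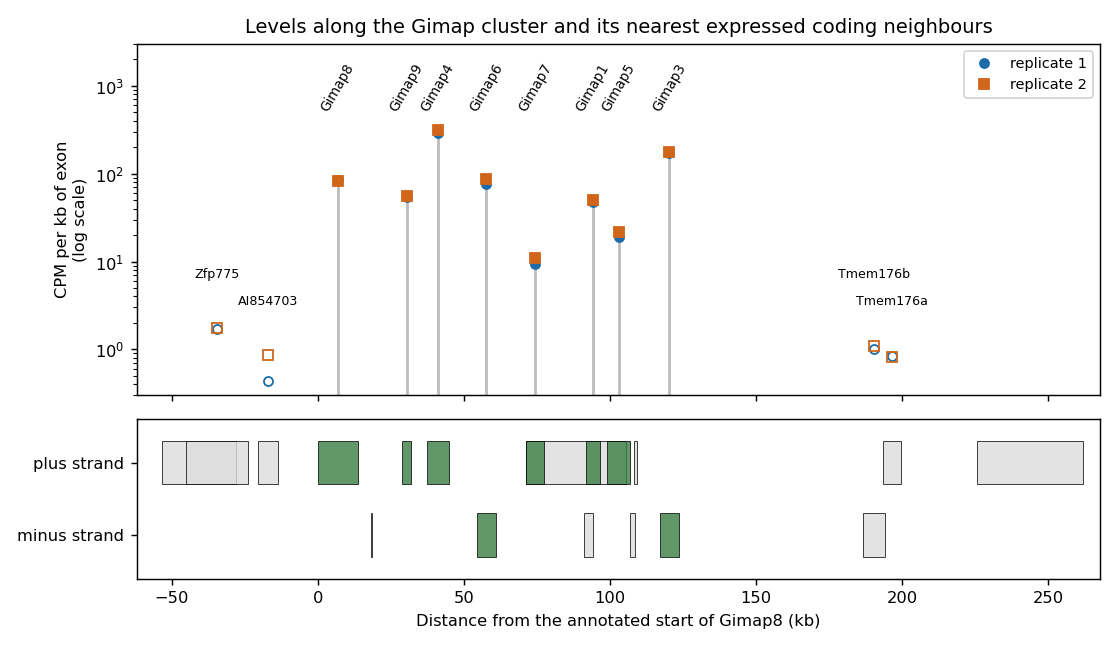
Top, level (y axis, CPM per kb of exon, log scale) of the Gimap genes (filled) and of the 4 flanking coding genes with counts (open) in both replicates, against distance from the annotated start of Gimap8 (x axis, kb). Bottom, extent of the Gimap genes (green) and other annotated genes (grey) on each strand; members lie between 9.46 and 311 CPM per kb and the flanking genes below 2.

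Against all protein-coding genes the family stood high. The 21163 coding genes with an annotated length had a median of 0.279 CPM per kb, and the 9274 of them at 1 CPM per kb or more had a median of 8.55. Gimap4 ranked 79 and Gimap3 ranked 157 among the 21163. Gimap8 and Gimap6 ranked 349 and 358, Gimap9 ranked 601 and Gimap1 ranked 693, so that 6 of the 8 were in the top 5%. Gimap5 ranked 2096, just inside the top 10%, and Gimap7 ranked 4040. The median of the 8 members was 68.2 CPM per kb. These ranks and top shares count all 21163 coding genes, most of which stood below 1 CPM per kb. They are positions within these libraries and carry no test.

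**Figure D4:**
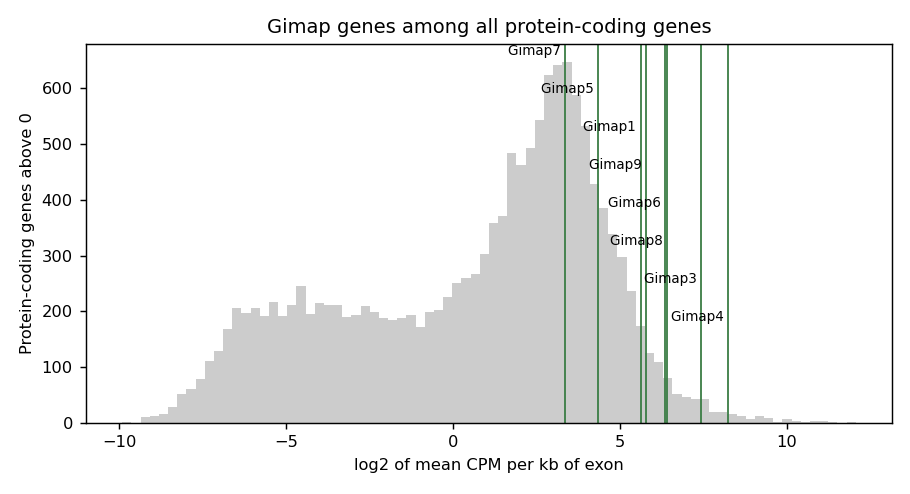
Number of protein-coding genes with any count (y axis) by log2 of mean CPM per kb of exon (x axis), with green lines at the 8 Gimap genes. Gimap7 stands near the main peak of expressed genes, and Gimap4 stands furthest to the right at 299 CPM per kb.

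Genes whose products are known to act with or beside Gimap proteins were present too. Of 13 genes encoding reported partners (autophagy proteins of the Gabarap and Map1lc3 families, Bcl2 relatives and Gsk3 kinases), all 13 were above 1 CPM, from 1.74 CPM per kb for Map1lc3a to 150 for the survival factor Mcl1, with a median of 17.6. Gabarapl2, the autophagy protein known to bind Gimap6, stood at 17.6 CPM per kb, below Gimap6 itself at 81.8. Bcl2, an inhibitor of cell death, stood at 50.3 CPM per kb. Of 19 genes for survival and maturation of naive T cells, all 19 were above 1 CPM, from 3.04 CPM per kb for Runx1 to 317 for the transcription factor gene Tcf7, with a median of 77.4. The median of the Gimap genes, 68.2, was thus close to that of this list, and Gimap4 at 299 CPM per kb lay just below its highest gene. The paper describes a large part of these CD4- thymocytes as innate memory-like CD8 T cells, so these are not levels of purely naive cells. Il7r, the interleukin 7 receptor chain that relays survival signals, stood at 77.4 CPM per kb, between Gimap6 and Gimap9. Of 17 other immune GTPases, the guanylate-binding proteins and the interferon-inducible IRG family, all 17 were above 1 CPM, from 1.04 CPM per kb for Gbp11 to 109 for Ifi47, with a median of 21.04. Gimap4 and Gimap3 stood above every gene of that list. Genes of the Gbp and IRG families have near-identical copies, so their single levels are uncertain.

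The libraries were compared gene by gene to see which members differed between them by more than counting error. The two-sided exact binomial test used for this compares 2 libraries and not 2 conditions, and 242 of 15949 genes tested (1.52%) passed an adjusted p of 0.05 with at least a 2-fold difference. None of the 8 Gimap genes did. Their log2 ratio of replicate 2 to replicate 1 ran from -0.06 for Gimap8 to 0.23 for Gimap7, with 7 members higher and 1 lower in replicate 2 by totals on genes, and 4 higher and 4 lower under each of the 3 other scalings (TMM factors, DESeq2 size factors, or totals that leave out mitochondrial and ribosomal RNA). By totals on genes the median of the members was 0.08, and that of all genes tested was also 0.08. Their median absolute log2 ratio was 0.09, against 0.17 over all genes tested. At an unadjusted p under 0.05, 5 members differed with no minimum fold, beside 27.7% of all genes tested. Neither comparison was matched for depth: every member had at least 786 counts over both libraries, as did only 6477 of the 15949 genes tested. Counting error is larger at fewer counts, so the smaller median ratio does not show that the family was steadier than other genes. With no minimum fold 0 members, beside 0.464% of all genes tested, passed edgeR's exact test once biological variation (BCV) was assumed to be 0.1.

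With no minimum fold, 3 of the 8 (37.5%) passed, against 16.3% of all genes tested and 29.3% of the 6477 genes with at least the 786 counts of Gimap7. All 3 were higher in replicate 2: Gimap6 by a log2 ratio of 0.21 (adjusted p = 8.95e-11, exact binomial test), Gimap4 by 0.11 (adjusted p = 2.91e-06, exact binomial test) and Gimap5 by 0.19 (adjusted p = 0.00549, exact binomial test). The other scalings moved the median log2 ratio of all genes from 0.08 to between 0.00 and 0.03, and of these calls Gimap6 alone was kept under all 3, at log2 ratios from 0.13 to 0.16 (largest adjusted p 0.000249, exact binomial test). Gimap4 lost its call with TMM factors and with DESeq2 size factors (adjusted p = 0.323 and 0.0963, exact binomial test), and Gimap5 with all 3 scalings. Gimap8 passed as lower in replicate 2 under the same 3 scalings, at log2 ratios from -0.14 to -0.11 (largest adjusted p 0.00244, exact binomial test). Gimap1, Gimap3 and Gimap9 were slightly higher in replicate 2 by totals on genes and slightly lower under the 3 other scalings, and passed under none. With no minimum fold, all genes tested passed at 10.6% with TMM factors, 10.9% with DESeq2 size factors and 11.4% with the third scaling, beside 2, 2 and 3 of the 8 members. Xist, Ddx3y, Eomes and the other NK cell markers moved between the same libraries, and their part in the Gimap differences was not tested.

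**Figure D5:**
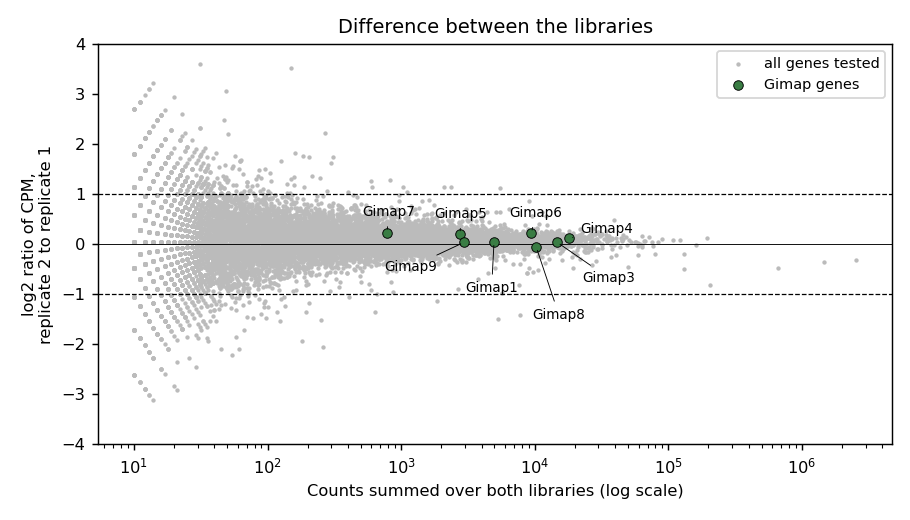
log2 ratio of CPM in replicate 2 to replicate 1 (y axis) against counts summed over both libraries (x axis, log scale) for the 15949 genes tested (grey) and the 8 Gimap genes (green), with dashed lines at a 2-fold difference. All 8 members lie between -0.06 and 0.23, and 21 genes lie beyond the plotted range of 4 on either side.

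The listed companions of the family differed between the libraries by less than 2-fold. At 2-fold or more, 0 of the 13 partner genes, 0 of the 19 naive T cell genes and 0 of the 17 other immune GTPases passed, beside the 1.52% of all genes. With no minimum fold, 5 partner genes were higher in replicate 2 and 0 lower. The naive T cell list had 5 higher and 5 lower, and the other GTPases had 3 higher and 2 lower, beside 16.3% of all genes (2146 higher and 450 lower). That share was not matched to the depth of the lists, and it was 29.3% among genes with at least 786 counts. The partner genes that passed were Gabarapl2, Bcl2, Bak1, Bcl2l11 and Gsk3a, at log2 ratios from 0.07 to 0.29. Of the naive T cell genes, S1pr1 and Ccr7, receptors that guide cells out of the thymus and into lymph nodes, fell by 0.48 and 0.30 on the log2 scale from replicate 1 to replicate 2, and Il2rg and Tcf7 were among the others that were lower, while Jak1, Jak3, Ikzf1, Ets1 and Runx3 were higher. Of the other GTPases, Gbp5, Iigp1 and Ifi47 were higher and Gbp9 and Irgm2 lower. These splits moved with the scaling: with TMM factors, where all genes split into 812 higher and 876 lower, the partner list had 1 higher and 0 lower, the naive T cell list 2 higher and 10 lower, and the other GTPases 0 higher and 6 lower. In the cluster's surroundings AI854703 alone passed at 2-fold, at a log2 ratio of 1.02 (adjusted p = 0.0109, exact binomial test) on 31 and 61 counts. That ratio lies just above the 2-fold threshold. The other scalings lower every log2 ratio by more than this margin, so the call holds by totals on genes only.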

How the data were processed

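Per the labels and the study's methods, single-end reads of 50 bases were mapped with TopHat2 2.1.1 to mm10 (GRCm38), and the authors deposited HTSeq 0.6.1 raw counts per gene. The submitters' processing notes name both tools. The annotation, overlap mode and strand setting used for counting are not given in the sources used here. Of reads mapped to a single place, 40.6% and 41.2% were on genes, 55.9% in both libraries on no gene, and 3.52% and 2.92% ambiguous. Rows that name no gene were left out.

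CPM used the total on genes. Exons, positions and transcripts came from GENCODE M21, and promoters from RefSeq (all 8 members matched). The genes named were the members, all annotated genes between them, the 3 nearest coding genes on each side, and from each list the highest, the lowest and those called between libraries; list genes named beyond these were chosen after their values were seen, and some list genes are not reported here. No genes with a like pattern were sought, since there are only 2 libraries of 1 condition. The members and lists were chosen with earlier results of these data known.

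Genes with at least 10 counts over both libraries were compared with the exact binomial test (two-sided), adjusted after Benjamini and Hochberg over all genes tested (scipy 1.17.1, statsmodels 0.14.6), and called at 0.05 on the adjusted p and 2-fold or more, on counts with 0.5 added. No source gives the number of mice per library. Xist and Ddx3y counts show that the libraries did not come from the same mice, and the sex of the mice and the replicate cannot be told apart. The binomial p-values set the difference between these 2 libraries against counting error alone, and the spread among mice was not estimated. Wilson intervals and the level of 3 counts express counting error alone, because these reads carry no molecular identifiers and need not stem from separate molecules. Alternatives used edgeR 4.0.16 (TMM, exact test), DESeq2 1.42.0 size factors, other minimum counts, totals that leave out 392 mitochondrial and ribosomal RNA genes, other lengths and each replicate left out.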

Additional observations from a re-analysis of the deposited data

How the results depend on the processing

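No paired analysis was possible because the 2 libraries belong to one group. Totals without mitochondrial and ribosomal RNA genes raised the family total from 1940 to 2248 CPM and the median member from 218 to 252 CPM, as a smaller total must. With each replicate left out, the family total was 1887 to 1993 CPM, the median member 207 to 229 CPM and the ratio of the highest to the lowest member per kb 28.1 to 30.3. That ratio, 29.1 per kb of exon union, was 16.2 per kb of longest transcript, 17.3 per kb of mean coding transcript and 25.8 per window in no other gene.

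No member passed at 2-fold under any of the scalings, minimum counts or tests tried, and 3 passed with no minimum fold. Combining no minimum fold with other scalings was chosen after seeing the data: 2 members passed with TMM factors (10.6% of all genes), 2 with DESeq2 size factors (10.9%) and 3 without mitochondrial and ribosomal RNA genes (11.4%), and the gene lists were recounted under the same scalings. Over all genes the 242 calls became 55 with a minimum of 100 counts, 60 with edgeR's exact test and 2596 with no minimum fold. The calls at 2-fold split into 92 higher in replicate 1 and 150 higher in replicate 2 by totals on genes, 99 and 98 with TMM factors, and 97 and 101 with DESeq2 size factors. TMM factors moved the median log2 ratio of all genes from 0.08 to 0.00. Depth limits Gimap7 most, with 368 and 418 counts.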
